A study of Mus musculus with 6 samples.

Results

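The genes described here are 32 listed genes of fatty acid oxidation and of the PPAR-alpha response, followed in mouse hepatoblasts after a rise in miR-337-3p. They were taken by symbol from a fixed list, and 31 of the 32 have a row among the 30927 genes measured. Hadhb, the beta subunit of the mitochondrial trifunctional protein, was not analysed here. None of these 31 genes had more than 1 row.

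The cells were BMEL, an immortalized line of hepatoblasts from E12.5 livers of wild-type CD1 mice, grown on collagen. Hepatoblasts are the fetal progenitors of hepatocytes and bile duct cells. In the tested wells, cells received 500 ng of a synthetic miR-337-3p mimic (3 arrays). In the control wells, they received 500 ng of a mimic with no intended target, the miRIDIAN negative control (3 arrays). All wells were seeded with 50000 cells, transfected with a Lipofectamine reagent and represent 48 h of exposure, and RNA was read on Affymetrix arrays as 1 log2 signal per transcript cluster. A single line stands for the cell type, and the labels do not say whether the wells were separate cultures, so the spread between arrays may be technical. In such bulk RNA, fewer cells with a transcript and less of it per cell cannot be told apart.

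Fatty acids are burnt in steps. Acyl-CoA synthetases activate them, the carnitine shuttle carries them into mitochondria, and the matrix enzymes of beta-oxidation shorten the chain while handing electrons to the electron transfer flavoprotein. Peroxisomes run a parallel pathway for very long and branched chains. PPAR-alpha, a fatty acid-sensing nuclear receptor that pairs with RXR, switches on many of these genes in the fasting liver, through paired half-sites in their regulatory DNA.

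The mimic copies the mature strand below, shown because its seed (bases 2 to 8, in capitals) sets which messages a microRNA pairs with. The sequence is from RefSeq on GRCm38.p6, at chr12:109585850-109585871 on the plus strand.

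mmu-miR-337-3p: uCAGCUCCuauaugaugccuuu

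Most of the oxidation genes stood lower after miR-337-3p mimic, and none passed the test in the upward direction. Of the 31 genes, 5 fell and 0 rose, with the limma p-value adjusted over all genes by Benjamini-Hochberg and held to a threshold of 0.05. These were Acsl1, Acsl3, Slc25a20, Acadl and Pex11a. Over all genes tested, 1.68% fell and 1.89% rose by that rule. The oxidation genes are bright, with 30 of 31 among the 15464 brightest genes, where 3.2% fell. With the replicate number as a block, 12 fell and 0 rose, against 3.88% falling over all genes and 1120 of the 15464 brightest.

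The same direction shows in the counts that do not depend on an adjusted p. Log2 differences (mimic minus control) were below 0 for 28 of the 31 genes, against 46.1% of all genes and 6747 of the 15464 brightest. Before adjustment, 17 had a p under 0.05 with a lower signal and 0 with a higher one, where all genes had 6.38% lower and 8.7% higher. Of the 15464 brightest genes, 1704 were lower and 2339 higher at that limma p. In 15 genes every mimic array read below every control array, against 8.33% of all genes and 1926 of the 15464 brightest. The median over the 31 genes was -0.32, against 0.02 over all genes and 0.05 over the 15464 brightest.

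**Figure D1:**
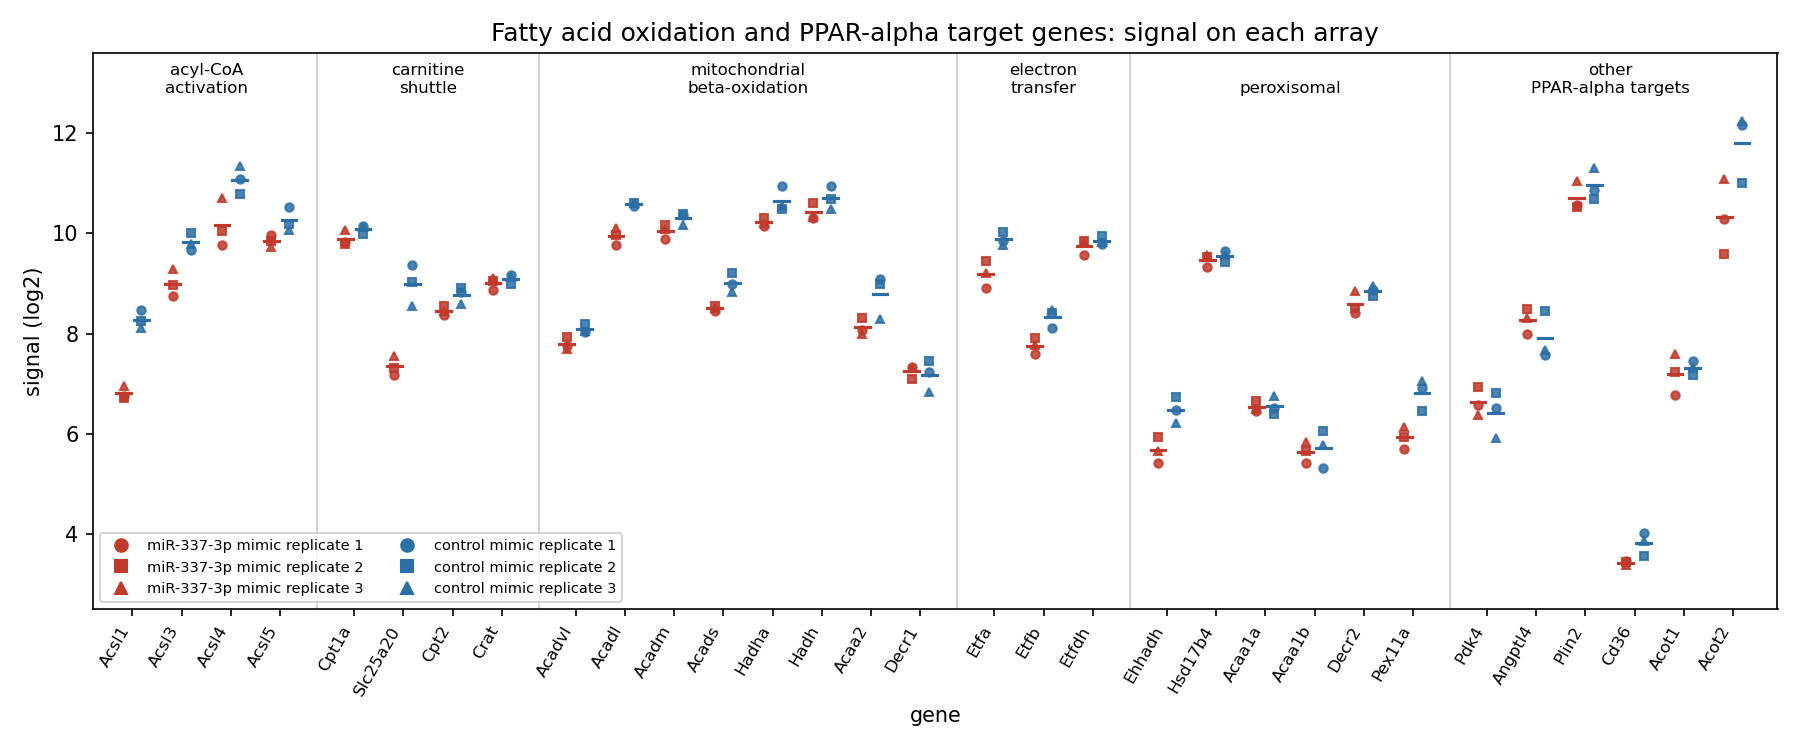
Log2 signal (y axis) of the 31 genes (x axis), grouped by role, on each array; red marks are miR-337-3p mimic, blue marks control mimic, shapes the replicate number and bars the mean of 3 arrays. The 4 listed acyl-CoA synthetases have their mimic arrays below their control arrays, while Angptl4, Pdk4 and Decr1 have higher mimic means.

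Arrays that share a replicate number deviated together, so the differences are also given within each number. All 3 of those differences were below 0 for 22 of the 31 genes, against 18.5% of all genes and 3712 of the 15464 brightest. All 3 were above 0 for Pdk4 and Angptl4 only. The median difference over the 31 genes was -0.55 in replicate 1, -0.34 in replicate 2 and -0.30 in replicate 3. Replicate 1 gave the lowest of the 3 differences for 23 genes. Without both of its arrays, a fit added after these values were seen, 0 of the 31 passed (limma), 9 were lower and 0 higher at a p under 0.05 before adjustment, and the median was -0.25.

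**Figure D2:**
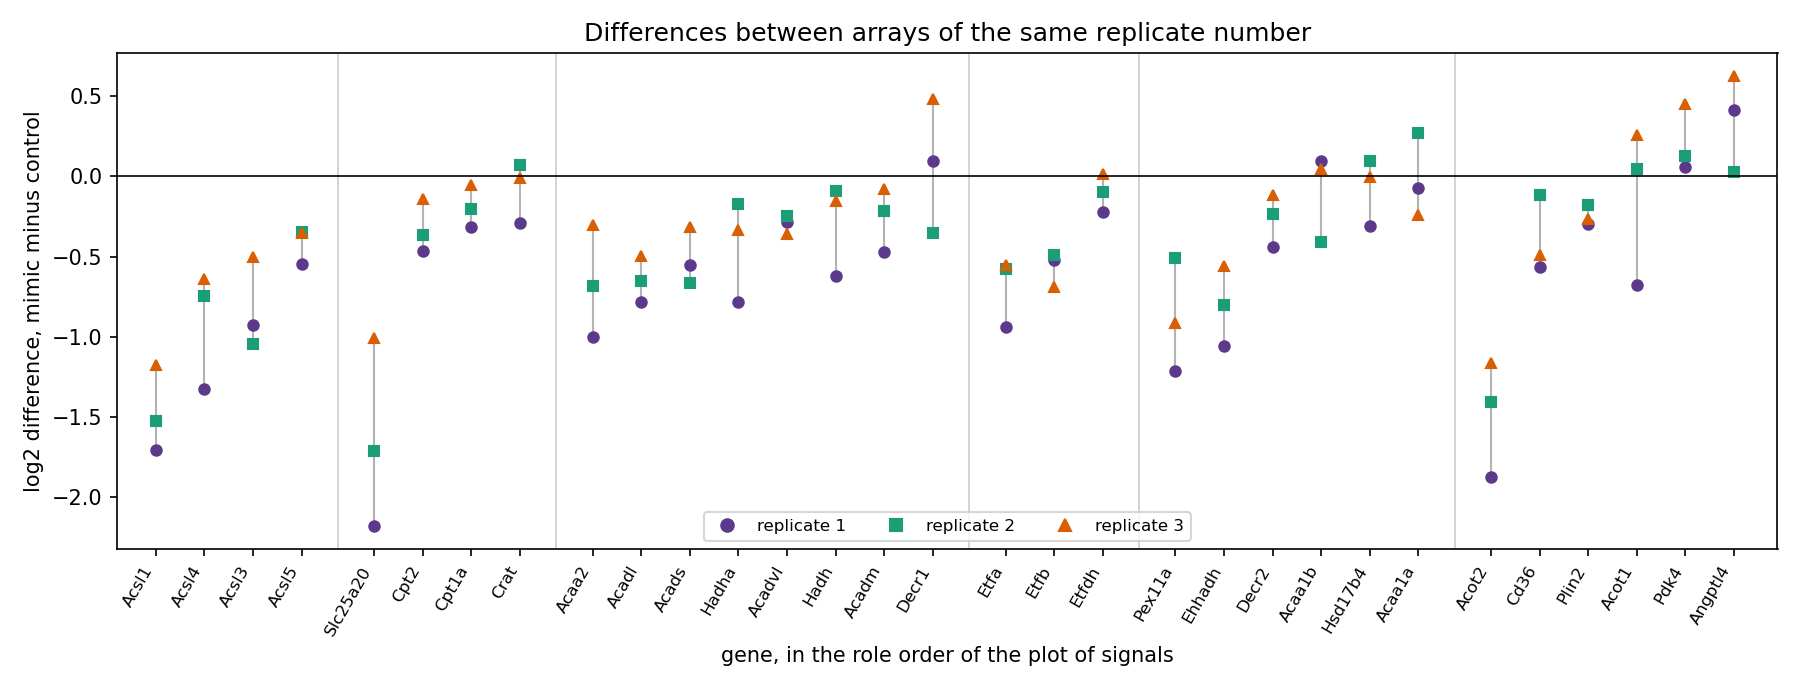
Log2 difference, mimic minus control, between arrays of the same replicate number (y axis) for each of the 31 genes (x axis); shapes and colours give the number and the grey line spans the 3 values. Acsl1, Slc25a20 and Acot2 lie low in all 3 replicates, and Crat, Hsd17b4 and Acaa1a scatter around 0.

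The 4 listed long-chain acyl-CoA synthetases, which activate fatty acids for oxidation or for storage, all read lower on every mimic array than on any control array. Acsl1, the main isoform of oxidative tissues, read 6.76, 6.72 and 6.94 on the mimic arrays, against 8.47, 8.25 and 8.12 on the control arrays. The gap between the groups exceeded the spread within either, and Acsl1 fell by 1.47 on the log2 scale (SE 0.14), or 2.77-fold, with a limma adjusted p of 0.00330. It passed in all 6 fits that left out 1 array (limma adjusted p up to 0.0171).

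Acsl3, which sits on lipid droplets, read 8.74, 8.97 and 9.28 on the mimic arrays, against 9.67, 10.01 and 9.78 on the control arrays. It fell by 0.83 (SE 0.17, limma adjusted p = 0.0376). That call held only without mimic replicate 3. Without mimic replicate 1 or 2 the adjusted p was 0.0968 and 0.113, and without control replicate 1, 2 or 3 it was 0.0913, 0.110 and 0.0898. Acsl4, which prefers polyunsaturated chains such as arachidonate, read 9.76, 10.04 and 10.71 on the mimic arrays, against 11.09, 10.79 and 11.35 on the control arrays. Its highest mimic array came close to its lowest control array. Its log2 difference was -0.90 (SE 0.25, limma adjusted p = 0.100), and it passed with the replicate block (adjusted p = 0.0145). Acsl5, found on mitochondria and endoplasmic reticulum, had a log2 difference of -0.41 (adjusted p = 0.230, 0.0654 with the block).

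In the carnitine shuttle, 1 of 4 genes fell, the carrier in the middle of the route. Slc25a20 encodes the carnitine-acylcarnitine translocase, which swaps acylcarnitine for carnitine across the inner mitochondrial membrane. It read 7.18, 7.31 and 7.55 on the mimic arrays, against 9.36, 9.03 and 8.56 on the control arrays. The lowest control array stood well above the highest mimic array, and Slc25a20 fell by 1.63 (SE 0.21), or 3.10-fold (limma adjusted p = 0.00716). This was the deepest fall among the 31 genes, and it passed in all 6 fits that left out 1 array (limma adjusted p up to 0.0261).

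Cpt1a, the outer-membrane acyltransferase that sets the pace of entry, read 9.83, 9.79 and 10.07 on the mimic arrays, against 10.15, 9.99 and 10.12 on the control arrays. These ranges overlap. The log2 difference was -0.19 with a 95% interval from -0.49 to 0.11 (limma adjusted p = 0.614). Cpt2, the inner-membrane partner, had -0.32 (adjusted p = 0.290), and Crat, which handles short chains, had -0.08 with an interval from -0.37 to 0.21. Whether Slc25a20 differed from Cpt1a in its change was not tested.

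**Figure D3:**
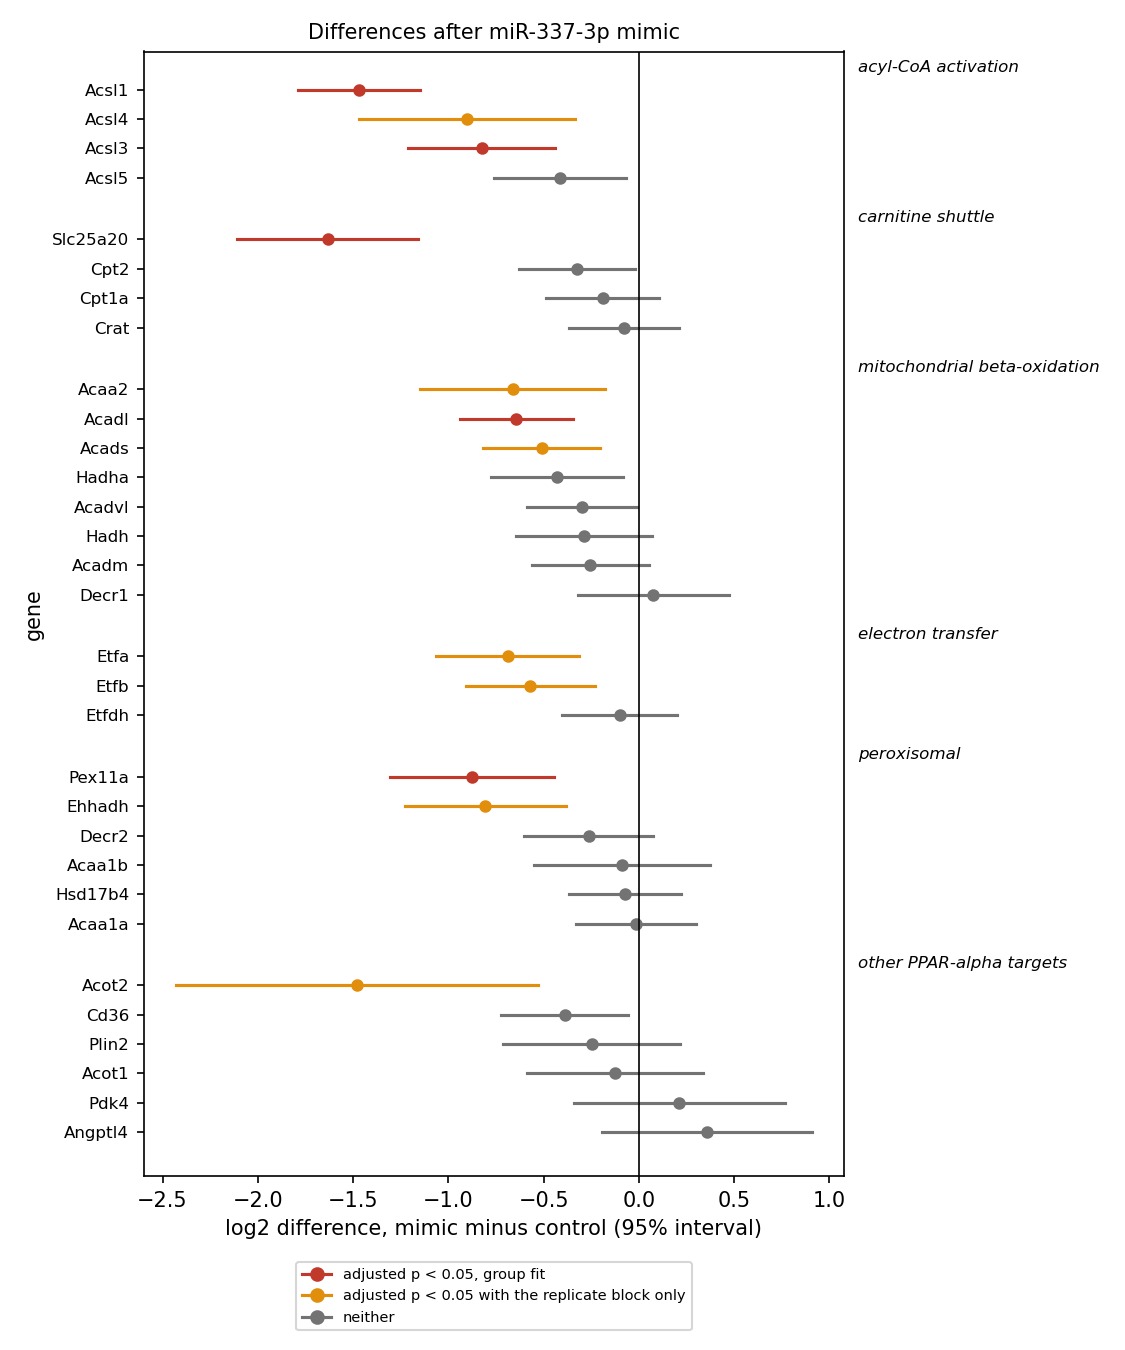
Log2 difference, mimic minus control (x axis), with its 95% interval from the limma fit of the group, for the 31 genes by role (y axis). Red genes passed at an adjusted p under 0.05, orange genes passed only with the replicate block, and grey genes in neither fit; 17 intervals lie below 0, 14 span 0 and none lies above it.

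Among the 8 measured enzymes of mitochondrial beta-oxidation, 1 fell, and 3 fell with the replicate block. Acadl, the long-chain acyl-CoA dehydrogenase that opens the cycle, read 9.77, 9.96 and 10.11 on the mimic arrays, against 10.56, 10.61 and 10.61 on the control arrays. The control arrays sat close together, with an SD of 0.03, and the mimic arrays spread further, with an SD of 0.17. Acadl fell by 0.64 (SE 0.13), or 1.56-fold (limma adjusted p = 0.0364). It passed in none of the 6 fits without 1 array. Without mimic replicate 1, 2 or 3 the adjusted p was 0.0951, 0.104 and 0.0536, and without control replicate 1, 2 or 3 it was 0.121, 0.101 and 0.0993.

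The short-chain dehydrogenase Acads read 8.44, 8.54 and 8.52 on the mimic arrays, against 8.99, 9.21 and 8.83 on the control arrays, with no overlap. Its log2 difference was -0.51 (SE 0.14, limma adjusted p = 0.0886, 0.0407 with the block). Acaa2, the thiolase that cleaves off acetyl-CoA at the end of each turn, read 8.08, 8.30 and 7.99 on the mimic arrays, against 9.08, 8.98 and 8.30 on the control arrays. Control replicate 3 lay level with mimic replicate 2, and without it the limma adjusted p was 0.0336. With all arrays the difference was -0.66 (SE 0.21, adjusted p = 0.158, 0.0371 with the block).

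Hadha, the alpha subunit of the trifunctional protein that carries out later steps on long chains, read 10.15, 10.31 and 10.21 on the mimic arrays, against 10.94, 10.48 and 10.54 on the control arrays. The groups did not overlap, and the difference of -0.43 did not pass (limma adjusted p = 0.203, 0.124 with the block). Acadm, the medium-chain dehydrogenase, read 9.89, 10.18 and 10.08 on the mimic arrays, against 10.36, 10.39 and 10.16 on the control arrays. Its groups overlapped, and its difference was -0.26 with a 95% interval from -0.56 to 0.05. The very-long-chain dehydrogenase Acadvl had -0.30 and the hydroxyacyl dehydrogenase Hadh -0.29. Decr1, a dienoyl-CoA reductase for unsaturated chains, had 0.07 with an interval from -0.32 to 0.47.

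Both subunits of the electron transfer flavoprotein, which collects electrons from the acyl-CoA dehydrogenases, were lower on every mimic array. Etfa read 8.90, 9.45 and 9.22 on the mimic arrays, against 9.84, 10.02 and 9.77 on the control arrays. Etfb read 7.59, 7.91 and 7.77 on the mimic arrays, against 8.11, 8.40 and 8.46 on the control arrays. Neither pair of groups overlapped. The differences were -0.69 for Etfa (SE 0.16, limma adjusted p = 0.0626, 0.0175 with the block) and -0.57 for Etfb (SE 0.15, adjusted p = 0.0842, 0.0221 with the block). Etfdh, the membrane oxidoreductase that takes the electrons on to ubiquinone, had -0.10 with an interval from -0.40 to 0.20.

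Of the 6 peroxisomal genes, 1 fell, and 2 fell with the block. The others passed in neither fit, with differences from -0.26 (Decr2) to -0.01 (Acaa1a). Pex11a, a membrane protein of peroxisome division, read 5.70, 5.94 and 6.14 on the mimic arrays, against 6.91, 6.45 and 7.05 on the control arrays. The groups did not overlap, and Pex11a fell by 0.88 (SE 0.19), or 1.84-fold (limma adjusted p = 0.0435). This call held without control replicate 2 (adjusted p = 0.0255). It was lost without mimic replicate 1, 2 or 3 (0.120, 0.118 and 0.0652) and without control replicate 1 or 3 (0.163 and 0.120).

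Ehhadh, the bifunctional enzyme of the peroxisomal cycle, read 5.41, 5.94 and 5.66 on the mimic arrays, against 6.47, 6.74 and 6.22 on the control arrays. Every mimic array lay below every control array, and the difference was -0.81 (SE 0.19, limma adjusted p = 0.0546, 0.0119 with the block). Acaa1b, a peroxisomal thiolase, read 5.42, 5.65 and 5.82 on the mimic arrays, against 5.32, 6.06 and 5.78 on the control arrays, with full overlap. Its difference was -0.09, and its close paralog Acaa1a had -0.01. A probe set may read both thiolases, so the share of each is uncertain. Hsd17b4, the enzyme that runs the middle steps for branched chains, had -0.07 and the reductase Decr2 -0.26, and neither passed.

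The remaining genes respond to PPAR-alpha but act around the pathway rather than in it, and 0 of these 6 passed in the limma fit of the group (2 were lower at an unadjusted p under 0.05). Pdk4, the kinase that restrains pyruvate dehydrogenase when fat is burnt, read 6.57, 6.94 and 6.36 on the mimic arrays, against 6.51, 6.82 and 5.91 on the control arrays. Angptl4, a secreted inhibitor of lipoprotein lipase, read 7.99, 8.48 and 8.30 on the mimic arrays, against 7.58, 8.46 and 7.68 on the control arrays. In both genes the groups overlapped and each mimic array read above its same-numbered control array. The differences were 0.21 for Pdk4 (95% interval -0.34 to 0.77) and 0.36 for Angptl4 (-0.20 to 0.91), with limma adjusted p-values of 0.820 and 0.605.

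Plin2, the coat protein of lipid droplets, read 10.57, 10.52 and 11.05 on the mimic arrays, against 10.87, 10.69 and 11.31 on the control arrays. It was among the brightest of the 31 genes, its groups overlapped, and its difference was -0.25 (limma adjusted p = 0.704). Cd36, a fatty acid uptake receptor, read 3.46, 3.44 and 3.37 on the mimic arrays, against 4.02, 3.56 and 3.86 on the control arrays. Those signals are under the array medians, which ran from 4.84 to 5.01 on mimic and from 4.83 to 4.95 on control arrays. Every mimic array read below every control array, and the difference of -0.39 did not pass (limma adjusted p = 0.239). Background may make up part of a signal at that level.

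Acot2, the mitochondrial acyl-CoA thioesterase, which releases free fatty acid from its CoA ester, read 10.29, 9.60 and 11.08 on the mimic arrays, against 12.16, 11.002 and 12.24 on the control arrays. Mimic replicate 3 lay just above control replicate 2, so the groups overlapped. Within replicate numbers 1, 2 and 3 the differences were -1.87, -1.41 and -1.16. The log2 difference was -1.48 (SE 0.42), with a limma adjusted p of 0.108, and 0.00333 with the block (SE 0.15). Without control replicate 2 it was -1.88 (adjusted p = 0.0488).

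Acot1, the cytosolic paralog, had a difference of -0.12 with an interval from -0.59 to 0.34 (limma adjusted p = 0.890). The relatives Acot4 and Acot3, listed among the other pathway genes below, had -0.89 (adjusted p = 0.0200) and 0.11 (adjusted p = 0.874). Acot4 held its call without mimic replicate 3 or control replicate 2. It lost the call without mimic replicate 1 or 2 (0.0624 and 0.0723) or control replicate 1 or 3 (0.0757 and 0.0657). These thioesterases are close paralogs, so probe sets may share signal and the share of each gene is uncertain.

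The 11 genes not given array by array ran from -0.41 (Acsl5) to 0.07 (Decr1), with adjusted p-values of 0.230 or more in limma. Of their 95% intervals, 8 spanned 0 and 3 lay below it.

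Promoter windows from RefSeq (GRCm38.p6, 250 bases before to 50 after the gene start) were found for 27 of the 32 genes and searched on both strands for the letters a PPAR-RXR pair is known to read. The full direct repeat AGGTCANAGGTCA was in 0 of the 27 windows, and 0.0396% of all promoter windows held it. Its half-site AGGTCA, which is part of the direct repeat, was in 5 of the 27, against 16.3% of all windows. These were Cpt1a, Acadvl, Acadm, Plin2 and Cd36, of which 0 passed in either fit. Among the further 65 pathway genes described below, 49 had a window, 0 held the direct repeat and 14 held the half-site. Those 14 include Pparg, Phyh, Creb3l3 and Acot4, which fell, and Fabp1, which fell only with the replicate block. The rest of the 14 passed in neither fit. Whether the half-site goes with a fall was not tested. The match is of letters in a short window and does not show binding or its absence.

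The windows below are those of Slc25a20, the deepest fall (chr9:108661886-108662185, plus strand), Acadm, 1 of the 5 with a half-site (chr3:153944594-153944893, minus strand), and the paralogs Acot2 (chr12:83987611-83987910, plus strand) and Acot1 (chr12:84009252-84009551, plus strand), whose differences were unlike in size. Capitals mark a half-site on either strand.
Slc25a20: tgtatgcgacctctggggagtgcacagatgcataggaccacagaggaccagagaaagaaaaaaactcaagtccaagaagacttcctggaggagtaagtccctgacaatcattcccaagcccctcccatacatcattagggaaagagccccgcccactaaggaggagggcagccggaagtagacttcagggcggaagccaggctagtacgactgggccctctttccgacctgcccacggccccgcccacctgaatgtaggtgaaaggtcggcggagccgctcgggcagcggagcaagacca
Acadm: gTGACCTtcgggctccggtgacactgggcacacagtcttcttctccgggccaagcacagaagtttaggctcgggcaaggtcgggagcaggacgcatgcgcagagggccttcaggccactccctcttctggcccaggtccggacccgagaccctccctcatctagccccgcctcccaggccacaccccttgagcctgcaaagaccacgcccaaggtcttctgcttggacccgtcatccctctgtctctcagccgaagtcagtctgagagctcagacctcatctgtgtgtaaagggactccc
Acot2: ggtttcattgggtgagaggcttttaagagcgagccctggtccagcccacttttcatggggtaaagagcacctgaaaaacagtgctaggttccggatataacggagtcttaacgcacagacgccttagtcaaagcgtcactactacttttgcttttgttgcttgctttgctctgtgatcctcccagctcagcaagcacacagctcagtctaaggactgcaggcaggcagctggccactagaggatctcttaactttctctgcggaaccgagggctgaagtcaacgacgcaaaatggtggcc
Acot1: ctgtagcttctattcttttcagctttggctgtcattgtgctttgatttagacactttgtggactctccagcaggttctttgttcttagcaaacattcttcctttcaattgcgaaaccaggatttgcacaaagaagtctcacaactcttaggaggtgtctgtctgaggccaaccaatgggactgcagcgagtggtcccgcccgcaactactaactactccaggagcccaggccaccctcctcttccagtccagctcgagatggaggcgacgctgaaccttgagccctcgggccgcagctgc

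A further list held 65 genes of the same pathway, all measured. Of these, 9 fell and 0 rose (limma, Benjamini-Hochberg over all genes), and 17 fell and 0 rose with the block, against the shares of all genes given above. Before adjustment, 24 had a p under 0.05 with a lower signal and 3 with a higher one, and the median was -0.16. Every mimic array read below every control array in 22 of the 65, and above every control array in 3. Over all 30927 genes these counts were 2575 and 3479.

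Of 10 genes of PPAR receptors, their partners and cofactors, 1 fell, the receptor gene Pparg. Pparg, the relative of PPAR-alpha best known from fat cells, read 8.57, 9.55 and 9.35 on the mimic arrays, against 10.18, 10.54 and 10.29 on the control arrays. The groups did not overlap, and Pparg fell by 1.18 (SE 0.24), or 2.27-fold (limma adjusted p = 0.0386). It kept the call without mimic replicate 1 or 2. The call was lost without mimic replicate 3 (0.0723) and without control replicate 1, 2 or 3 (0.106, 0.110 and 0.0912).

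Ppara itself read 4.98, 4.93 and 4.77 on the mimic arrays, against 5.15, 4.86 and 5.06 on the control arrays, near the median of all genes. Its difference was -0.13 with a 95% interval from -0.43 to 0.17, and at that level a change may be hidden by background. Ppard, named beside them as the third receptor, had -0.16 (interval -0.62 to 0.30). Ppargc1a, the coactivator PGC-1alpha, read 4.77, 6.12 and 6.84 on the mimic arrays, against 5.92, 5.33 and 5.57 on the control arrays. Its mimic arrays spread across more than the whole control range, and the difference of 0.31 (SE 0.45) was -0.16 without mimic replicate 3 and 0.88 without mimic replicate 1 (limma adjusted p = 0.153).

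**Figure D4:**
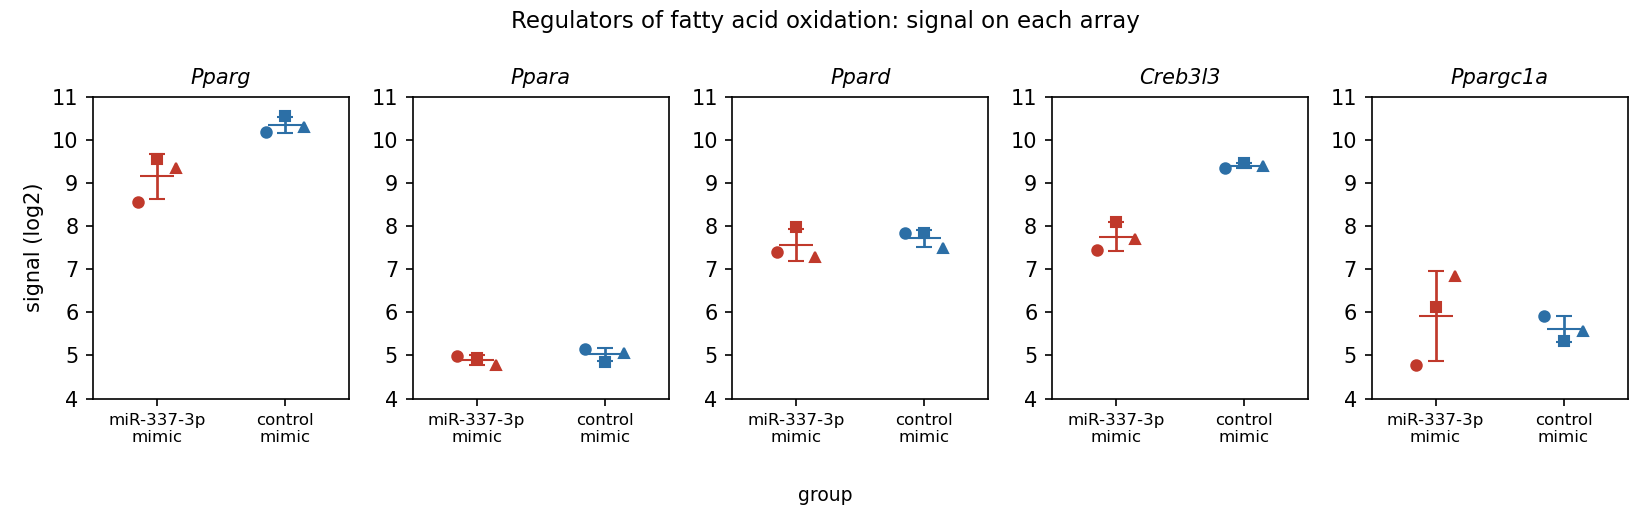
Log2 signal (y axis) of Pparg, Ppara, Ppard, Creb3l3 and Ppargc1a on each array, miR-337-3p mimic in red and control mimic in blue; circle, square and triangle are replicates 1, 2 and 3, and the bar with whiskers is the mean and SD of 3 arrays. The groups are apart for Pparg and Creb3l3 and overlap for the other genes.

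Creb3l3, a liver and gut transcription factor that works with PPAR-alpha in fasting, read 7.43, 8.10 and 7.71 on the mimic arrays, against 9.34, 9.47 and 9.39 on the control arrays. The groups lay far apart, and Creb3l3 fell by 1.65 (SE 0.17), or 3.15-fold (limma adjusted p = 0.00429). It passed in all 6 fits that left out 1 array (adjusted p up to 0.0222), the 1 gene of the further 65 to do so. Among the other PPAR-alpha targets of this list, Acot4 also fell, as given above, and 2 of the 16 passed in all.

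Among the other oxidation enzymes of this list, Acox2, Phyh and Acad11 fell. Acox2, which oxidizes branched chains and bile acid precursors, read 5.74, 6.22 and 7.13 on the mimic arrays, against 9.34, 8.39 and 10.001 on the control arrays. It fell by 2.88 (SE 0.44), or 7.36-fold (limma adjusted p = 0.0129), the deepest of the 65 and deeper than any of the 31. It passed in 5 of the 6 fits that left out 1 array. Without control replicate 1 the call was lost (limma adjusted p = 0.0629), with a difference of -2.83. Phyh, the hydroxylase that starts alpha-oxidation of phytanic acid, read 6.35, 6.54 and 6.84 on the mimic arrays, against 7.62, 7.38 and 7.35 on the control arrays. It fell by 0.87 (SE 0.16, adjusted p = 0.0247). Acad11, a member of the acyl-CoA dehydrogenase family, read 6.76, 7.28 and 7.52 on the mimic arrays, against 8.24, 8.28 and 7.98 on the control arrays, and fell by 0.98 (SE 0.20, adjusted p = 0.0376).

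Phyh and Acad11 kept their calls only without mimic replicate 3. Phyh had adjusted p-values in limma of 0.0688 and 0.0819 without mimic replicate 1 or 2, and of 0.106, 0.0572 and 0.0544 without control replicate 1, 2 or 3. For Acad11 they were 0.0651 and 0.0913 without mimic replicate 1 or 2, and 0.142, 0.107 and 0.0645 without control replicate 1, 2 or 3.

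Among 11 uptake and carrier genes, Fabp2, the intestinal fatty acid-binding protein, read 5.84, 7.41 and 6.70 on the mimic arrays, against 8.77, 8.61 and 8.20 on the control arrays. It fell by 1.88 (SE 0.35), or 3.68-fold (limma adjusted p = 0.0274), with no overlap between groups. The call was lost without mimic replicate 3 (0.0723) and without control replicate 1 or 2 (0.113 and 0.0734). Fabp1, the liver form, read 4.96, 6.31 and 4.93 on the mimic arrays, against 8.90, 8.13 and 6.60 on the control arrays, also with no overlap. Its difference was larger, -2.48 (SE 0.57), and passed only with the block (limma adjusted p = 0.0546, 0.0119 with the block). Slc27a1, a fatty acid transport protein of the plasma membrane, had a difference above 0, of 0.48 (adjusted p = 0.263, 0.0549 with the block). With Fabp1, 8 genes of the further list passed only with the block, and all 8 were lower.

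Of the other 7, Bdh1, the dehydrogenase that interconverts ketone bodies, had a log2 difference of -0.66 (limma adjusted p = 0.0803, 0.0134 with the block). Eci1, a mitochondrial enoyl-CoA isomerase for unsaturated chains, had -0.54 (0.0836, 0.0328 with the block). Crot, the peroxisomal carnitine octanoyltransferase, had -0.54 (0.111, 0.0247 with the block). In these 3 genes every mimic array read below every control array. Vnn1, a pantetheinase, had -1.38 (0.0809, 0.00447 with the block). Cidec, a lipid droplet protein, had -1.34 (0.0602, 0.0103 with the block). Prkaa2, a catalytic subunit of the AMP-activated kinase, had -1.50 (0.0541, 0.0246 with the block). The groups did not overlap in these 3 genes either. Pdk1, a pyruvate dehydrogenase kinase, had -0.63 with overlapping groups (0.191, 0.0447 with the block). Of the 7 malonyl-CoA and energy-sensing genes, 0 passed in limma, and 3 were lower at an unadjusted p under 0.05.

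**Figure D5:**
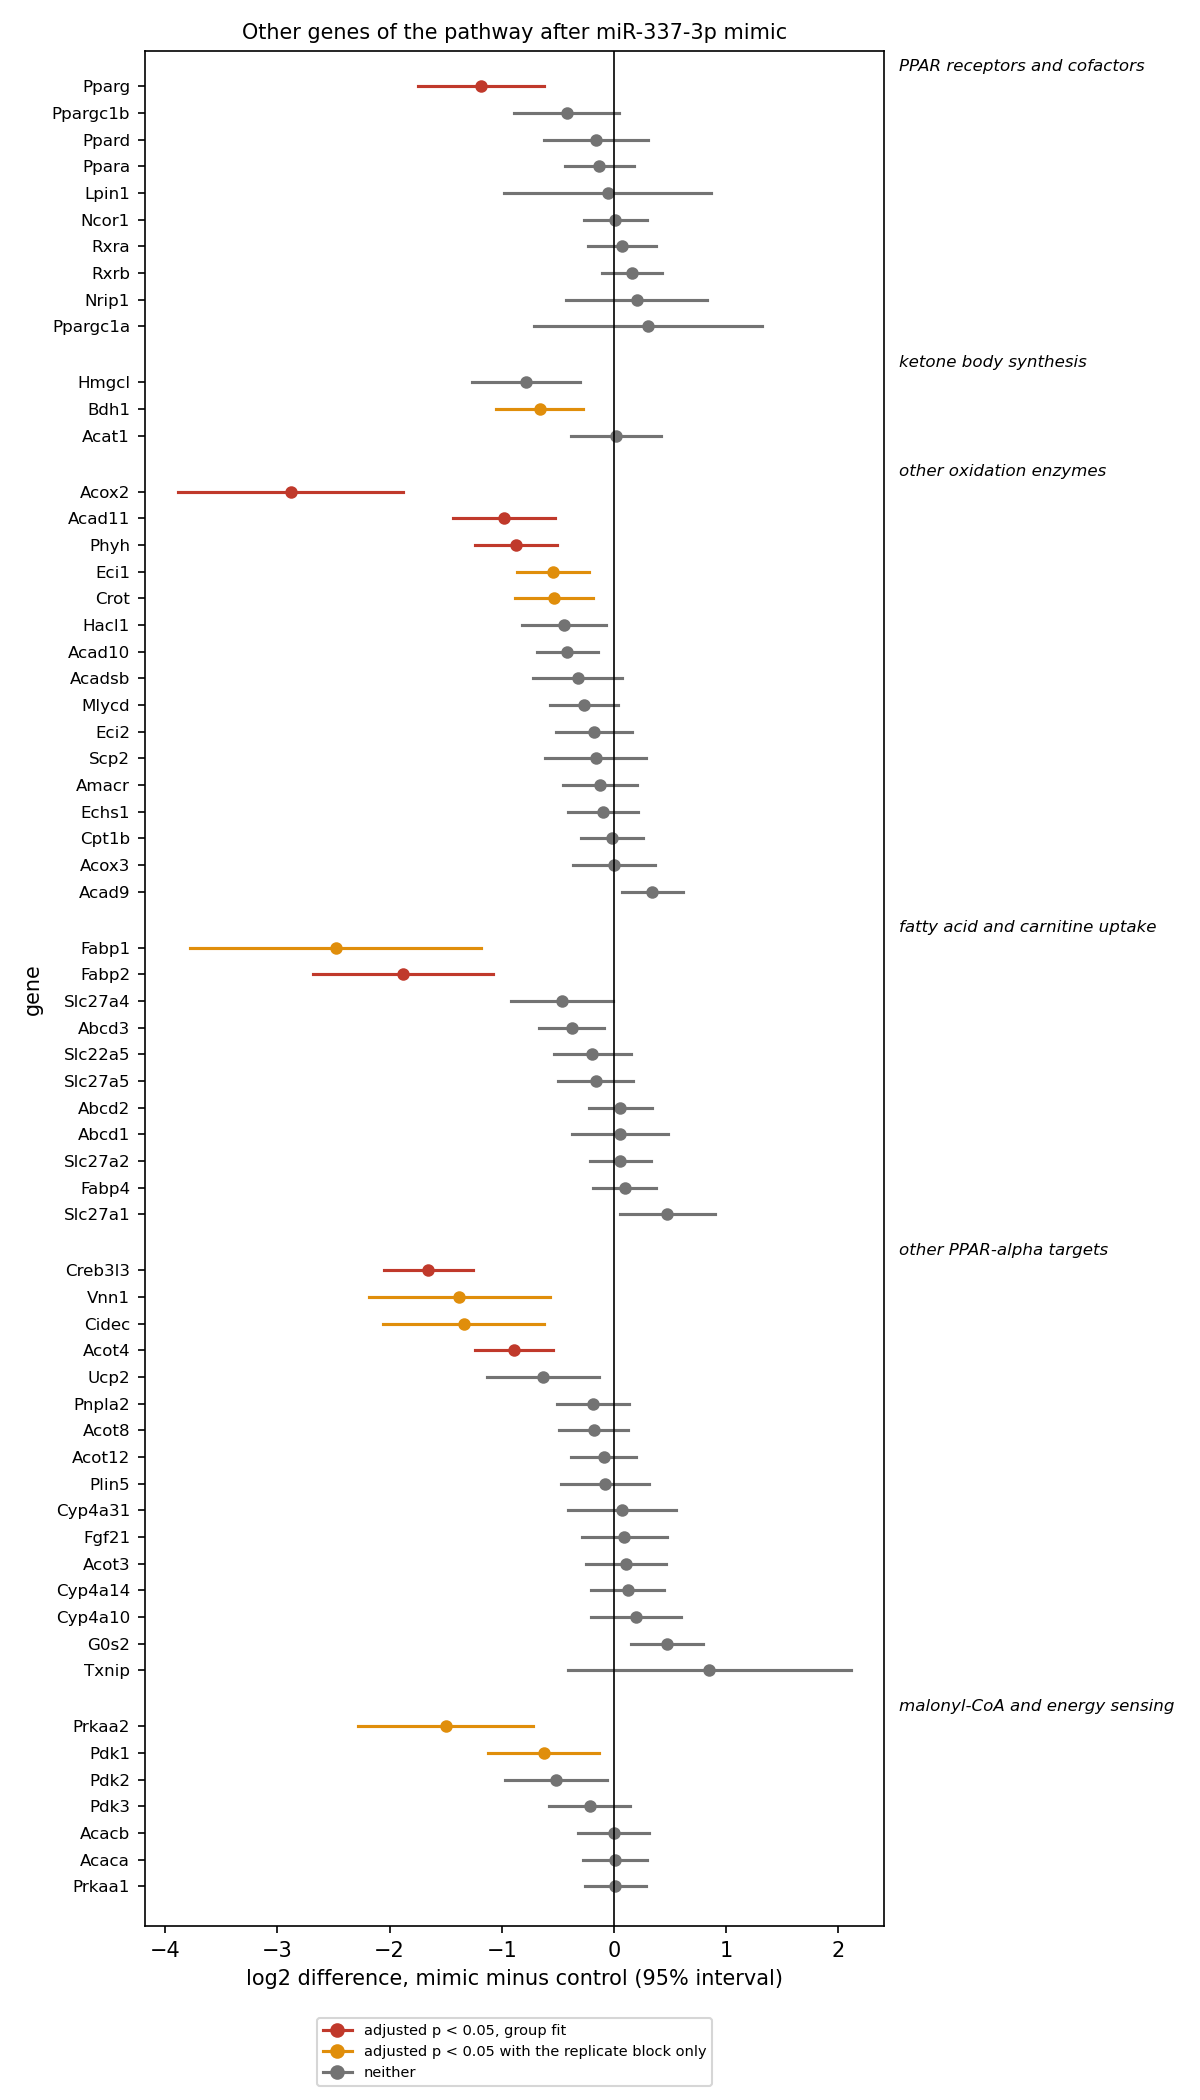
Log2 difference, mimic minus control (x axis), with its 95% interval from the limma fit of the group, for the further pathway genes reported here, by role (y axis). Red genes passed at an adjusted p under 0.05, orange genes only with the replicate block; most lie below 0, and Acox2 lies lowest at -2.88.

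Marker genes were read beside these results. On the hepatoblast list the keratins Krt8 and Krt18 and the adhesion gene Cdh1 were bright, while Dlk1 lay near the array medians and Afp and Alb read between 5.15 and 7.39. The list of 12 averaged 8.85 to 9.02 on mimic and 8.90 to 9.26 on control arrays, and Epcam fell by 1.00 (limma adjusted p = 0.00682). Alb passed only with the block, with a difference of -1.14 (adjusted p = 0.127, 0.0249 with the block). The adipocyte list, whose cells also use PPAR targets, averaged 4.14 to 4.38 on mimic and 4.12 to 4.34 on control arrays, with 0 of 5 genes passing (0 also at an unadjusted p under 0.05, limma) and Adipoq at 3.14 to 3.62 on mimic and 3.12 to 3.47 on control arrays. The endothelial list averaged 4.28 to 4.54 and 4.28 to 4.49 in the same order, with 0 of 5 passing (0 at that unadjusted p). The stellate and mesenchymal list averaged 4.87 to 5.07 on mimic and 4.90 to 4.99 on control arrays, with Col1a1 rising by 0.58 (0.0384) alone of 8. The blood and macrophage list averaged 4.59 to 4.81 on mimic and 4.45 to 4.66 on control arrays, with 1 of 5 rising. This was Cd68, a lysosomal protein of macrophages and other cells, by 1.18 (0.0320), while Ptprc and Emr1 read below the array median on all 6 arrays. In the 6 fits that left out 1 array, Epcam passed in 6, Cd68 in 2 and Col1a1 in 0. The part of these markers in the oxidation gene results was not tested.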

How the data were processed

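Expression was compared between 3 miR-337-3p mimic and 3 control mimic arrays, with groups and replicate numbers from the sample titles. For each of 41345 transcript clusters the authors deposited a log2 value per array, taken here as normalized. The array software or scaling was not given in the sources used here. Per the file headers, the authors' comparison table gives group averages in log2, a signed fold change (a score), a linear ratio, the p-value of an ANOVA and a second p-value after FDR correction. Gene symbols came from that table by cluster ID: 34471 rows joined, 2003 of them without a symbol and 15 with a date or number in its place. Each of 30927 genes was represented by its brightest row, by mean over the 6 arrays.

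Differences were fitted with limma 3.58.1 (lmFit, eBayes) in R 4.3.3 on all genes at once, with no filter on dim genes, with Benjamini-Hochberg adjustment across the whole table. Calls are those with an adjusted p under 0.05. Intervals are 95% limma intervals, and the script was tested on simulated data. No detection call is given, so a dim signal may be background and its fold understated. The number of arrays limits the precision, with a median SE of 0.15 over all genes.

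The main limma fit used the group only, and calls, SEs and intervals are from it unless the block is named. Same-numbered arrays deviated together across genes (correlations of 0.431, 0.370 and 0.442 for numbers 1, 2 and 3). They were treated as pairs only in the block fit and in the same-number differences. This pairing comes from the values, not from the labels. Values with the replicate number as a block are given beside the group fit where they change a call.

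The genes, lists and tests were chosen with earlier results of these data known. Values on every array are given for genes called in either fit, for 9 well-known members and for the smallest p in each role. Of the further list, most called genes, Ppara, Ppargc1a and Fabp1 are given so, while Acot4, also called, is given without its array values. Ppard, Acot3, Slc27a1, genes passing only with the block and those with a promoter motif were named outside that rule. Single values of some listed genes are not reported here, while counts include all of them. Alternatives were the block, no dim genes, limma with trend and robust options, quantile or median scaling, the dimmer row per symbol, the authors' ANOVA p-value and leaving out arrays. No listed gene had more than 1 row, so choosing the dimmer row left their signals unchanged. Sequences are from RefSeq tables (GRCm38.p6), read with pandas 2.3.3 in Python 3.11.15. No source used here gives the build of the array's annotation. One marker, Adgre1, was read under its older symbol Emr1, and Hba-a1 was not analysed here.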

Additional observations from a re-analysis of the deposited data

How the results depend on the processing

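No alternative run reversed the direction of a called gene, and 0 of the 31 oxidation genes or 65 further genes rose under any of them. The median of the 31 ran from -0.40 to -0.25 over all alternatives. With the replicate block 12 of the 31 and 17 of the 65 fell, and over all genes 1454 rose and 1200 fell. With array medians made equal 2 of the 31 fell (Acsl1 and Slc25a20), and 351 genes rose over all. With the authors' deposited ANOVA p-value, adjusted over the same genes, 0 of the 31 and 0 of the 65 passed, and 2 genes rose and 2 fell over all. That ANOVA gave 14 of the 31 and 22 of the 65 at an unadjusted p under 0.05. Without both arrays of replicate 1, a choice made after the data were seen, 0 and 0 passed (9 and 18 were lower at an unadjusted p under 0.05, limma), and 26 genes rose and 51 fell over all. In fits that leave out 1 array, falls ran from 2 to 4 of the 31 and from 1 to 9 of the 65, with 150 to 363 rises and 172 to 358 falls over all genes. For the 31, 2 passed without control replicate 1, 4 without control replicate 2 and 3 without control replicate 3. Without mimic replicate 1, 2 or 3 there were 2, 2 and 4. For the 65 the lowest count, 1, was without control replicate 1. How far the smaller number of arrays or particular arrays account for these lower counts was not tested. Ehhadh and Etfa passed among the 15464 brightest genes alone (limma adjusted p of 0.0393 and 0.0437), Etfa also with trend and robust options (0.0387), and Ehhadh and Etfb after quantile normalization (0.0411 and 0.0403). No detection call was at hand, so how much background limits dim genes such as Cd36 was not tested.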

Other observations

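The authors' deposited table gives linear ratios of mimic to control from its own bi-weight averages. In it Acsl1 stands at a ratio of 0.351 with an FDR p-value of 0.121, Slc25a20 at 0.317 with 0.165, Acadl at 0.633 with 0.164 and Creb3l3 at 0.316 with 0.135. The lowest FDR p-value of the 31 genes in the authors' deposited table is that of Acsl1.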
